A study of Drosophila melanogaster with 3 samples.

Results

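Divergent promoter peaks of the Drosophila melanogaster protein CG6765 were defined as thresholded ChIP-seq peaks whose summit lay within 500 bp of annotated start sites of at least 2 different protein-coding genes, with at least 1 gene on each strand. On the dm6 assembly, 562 of the 3816 peaks in the authors' reproducibility-thresholded list met this rule (14.7%, Wilson 95% interval 13.6 to 15.9%). Position alone chose them. The remaining thresholded peaks were 1448 with a start of 1 protein-coding gene within 500 bp, 44 with starts of several genes on 1 strand, and 1762 with no protein-coding start in reach. The weaker regions used for comparison came from the authors' list of 30000 candidates called on the pooled replicates, which the labels describe as peaks and background. Among the 25083 candidates that overlapped no thresholded peak, 919 met the same position rule.

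The samples were 3 biological replicates of 1 group, whole embryos of mixed sex collected at 0 to 24 h of development from a transgenic line that stably expresses CG6765 with eGFP at its C terminus. All 3 replicates carry the transgene, and the labels do not say whether the untagged gene product is also present. The description gives immunoprecipitation with an antibody against GFP, while the antibody label gives CG6765. Chromatin was sonicated to 200 to 800 bp and the sources used here name no peak caller, so a summit was not read as a bound base. A possible control experiment named in the labels was not analysed here. The lists hold no read numbers. Depth is therefore unknown, and each interval covers only how many peaks or genes were counted. Peaks and genes are not biological replicates, and every test across them compares regions of the genome, not embryos.

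Head-to-head gene pairs, in which the genes are transcribed away from each other from closely spaced starts, are common in the compact Drosophila genome. The DNA between such starts serves as promoter for both genes, and many of these genes are broadly expressed and encode parts of the translation, transport and repair machinery. Promoters of this kind often carry the DNA replication-related element (DRE), bound by Dref and overlapping the target of the insulator protein BEAF-32, or motif 1, bound by the zinc-finger protein M1BP. Promoters of genes with restricted expression more often carry a TATA box, an initiator or GAGA factor sites. Genes for cytoplasmic ribosomal proteins form a class of their own, with a polypyrimidine initiator in place of the usual one.

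The DNA between the starts is shown for 9 pairs, chosen because they hold strong summits or the words counted further on. Each line runs from the base after the minus-strand start to the base before the plus-strand start, on the plus strand, from the RefSeq genome of assembly Release 6, which has the coordinates of dm6. Capitals mark the TATA box word TATAAA, the DRE word TATCGATA and the motif 1 word GGTCACACT on either strand. The spans, in the order of the lines, are chr2L:8376798-8377034, chr3R:25247515-25247657, chr2L:10200975-10201003, chr3R:15229409-15229664, chr3L:8600880-8601005, chr3L:9457670-9457911, chr3R:11216288-11216534, chr3R:26059268-26059495 and chr2L:419653-419951. In the highest member the summit was base 77 of the line, to the left of the TATA box word. The RpS27 summit fell on the RpS27 start itself, the RpL7 summit 30 bp inside RpL7, and the RpLP1 summit on base 299, directly beside the RpLP1 start.
CG13390/CG17294: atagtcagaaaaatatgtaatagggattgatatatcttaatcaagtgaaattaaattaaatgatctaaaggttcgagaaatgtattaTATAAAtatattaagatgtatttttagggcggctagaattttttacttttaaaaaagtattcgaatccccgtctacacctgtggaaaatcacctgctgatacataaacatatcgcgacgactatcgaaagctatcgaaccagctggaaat
RpS27/Nup37: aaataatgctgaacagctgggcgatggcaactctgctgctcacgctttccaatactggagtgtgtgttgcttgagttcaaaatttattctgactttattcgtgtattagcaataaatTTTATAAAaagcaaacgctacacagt
Ripalpha/RpL7: cccactccgcggccAGTGTGACCgtttgg
Art3/mRpS10: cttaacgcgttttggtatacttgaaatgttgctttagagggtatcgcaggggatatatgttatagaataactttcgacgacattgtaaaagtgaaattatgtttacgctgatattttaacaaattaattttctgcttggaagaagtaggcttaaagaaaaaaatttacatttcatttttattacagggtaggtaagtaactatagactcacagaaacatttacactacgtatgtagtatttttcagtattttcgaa
Nelf-E/RpL14: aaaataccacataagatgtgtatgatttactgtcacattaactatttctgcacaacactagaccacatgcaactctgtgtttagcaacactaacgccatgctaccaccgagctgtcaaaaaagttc
CG3437/CG3552: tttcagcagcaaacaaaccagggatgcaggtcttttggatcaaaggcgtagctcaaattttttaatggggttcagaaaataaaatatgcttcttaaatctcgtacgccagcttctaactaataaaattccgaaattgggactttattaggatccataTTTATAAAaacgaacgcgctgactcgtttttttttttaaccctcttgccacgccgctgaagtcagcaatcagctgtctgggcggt
RpS25/CG4820: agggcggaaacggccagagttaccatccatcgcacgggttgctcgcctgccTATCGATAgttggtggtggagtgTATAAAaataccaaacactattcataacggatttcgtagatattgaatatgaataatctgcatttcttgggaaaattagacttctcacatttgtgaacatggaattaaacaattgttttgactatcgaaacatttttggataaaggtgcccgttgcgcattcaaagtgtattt
RpL34a/Trmt61: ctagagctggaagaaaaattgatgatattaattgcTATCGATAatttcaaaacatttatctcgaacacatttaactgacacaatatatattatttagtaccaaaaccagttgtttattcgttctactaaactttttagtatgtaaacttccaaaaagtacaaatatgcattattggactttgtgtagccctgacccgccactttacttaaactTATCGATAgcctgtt
CG13690/RpLP1: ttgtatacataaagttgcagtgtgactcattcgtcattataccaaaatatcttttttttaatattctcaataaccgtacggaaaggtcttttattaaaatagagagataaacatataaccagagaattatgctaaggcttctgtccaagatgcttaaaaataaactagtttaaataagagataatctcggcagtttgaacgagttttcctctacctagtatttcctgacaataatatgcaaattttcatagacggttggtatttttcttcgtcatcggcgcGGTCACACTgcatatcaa

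The divergent arrangement was more frequent among thresholded peaks than among weaker candidates. It held for 562 of 3816 thresholded peaks, against 919 of 25083 other candidates (3.66%), an odds ratio of 4.54 (4.06 to 5.08 at 95%; Fisher's exact test over peaks, which was two-sided here and in what follows, p = 1.5e-135). The threshold itself kept 12.7% of all pooled candidates, and 37.9% of the 1481 regions that met the position rule. Thresholded peaks were also more often at promoters in general, so the share was computed again among peaks with any protein-coding start within 500 bp, a comparison added after the data were seen. There 562 of 2054 thresholded peaks were divergent (27.4%), against 919 of 5968 other candidates (15.4%), with an odds ratio of 2.07 (1.84 to 2.33; Fisher's exact p = 2.0e-31). With the comparison limited to the 3479 candidates that ranked in the 3816 places under the threshold and overlapped no thresholded peak, the odds ratio over all peaks was 1.87 (Fisher's exact p = 5.2e-17) and that over peaks at protein-coding starts was 1.51 (p = 4.1e-07).

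The replicates' own lists showed the same direction. Among the 3816 strongest peaks of each list, 11.9% were divergent in replicate 1, 15.7% in replicate 2 and 14.5% in replicate 3, and among their remaining peaks 3.04%, 4.17% and 4.04% were. The means were 14.0 ± 1.96% and 3.75 ± 0.617% (SD, n = 3 each), higher in the strongest peaks of 3 of 3 replicates (exact sign-flip test, p = 0.25, the smallest p that 3 replicates allow). Replicate 1 held the fewest divergent peaks in both sets. Down the pooled ranking the share fell by steps. It was 18.8% in the strongest 954 thresholded peaks and 13.6%, 13.6% and 12.9% in the next groups of 954, then 8.88% in the 3816 candidates below the threshold, 5.19% in the next 7632 and 2.23% in the rest, where candidates that overlapped a thresholded peak were counted too.

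Counted by genes, the difference had the same direction. A gene was called head-to-head when one of its starts lay within 1000 bp of the start of a coding gene on the other strand and the pair was transcribed outward. Of 5052 such genes, 1358 had a thresholded summit within 500 bp of a start (26.9%), against 1012 of 8893 other protein-coding genes (11.4%). The odds ratio was 2.86 (2.62 to 3.13; Fisher's exact p = 8.2e-117), with 17.0% of all 13945 protein-coding genes having such a summit. A head-to-head gene can take its call from a summit that is nearer to its partner, so the genes of a pair are not independent. This way of counting also raises the share of head-to-head genes above that of the others. How much of the difference it accounts for was not tested.

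The share of pairs with a summit varied with the spacing of their starts. The annotation gave 2667 head-to-head gene pairs with up to 999 bases between their closest starts, and 576 of them had a thresholded summit within 500 bp of both genes (21.6%). A summit can serve more than 1 annotated pair, which is why this number is above the 524 pairs counted by the nearest start on each strand. Pairs 200 to 299 bases apart held one in 32.3% of 542 cases and pairs 300 to 399 bases apart in 32.5% of 400. Pairs closer than 100 bases did so in 23.3% of 429 cases, and those at 100 to 199 bases in 20.7% of 357. The share was 18.4% at 400 to 499 bases, 9.72% at 500 to 749 and 2.80% at 750 to 999, where few positions can lie within 500 bp of both starts. Pooled candidates of any rank, a set that includes the thresholded peaks, were found at 63.2% of pairs under 100 bases and 51.5% at 100 to 199. At 200 to 299 and 300 to 399 bases they were found at 67.3% and 68.8%. Of the pairs with any candidate, 36.9%, 40.2%, 47.9% and 47.3% held a thresholded summit, in the same order of spacing. For wider spacing it was 35.5% at 400 to 499 bases, 32.8% at 500 to 749 and 46.7% at 750 to 999, the last from 7 of 15 pairs.

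**Figure D1:**
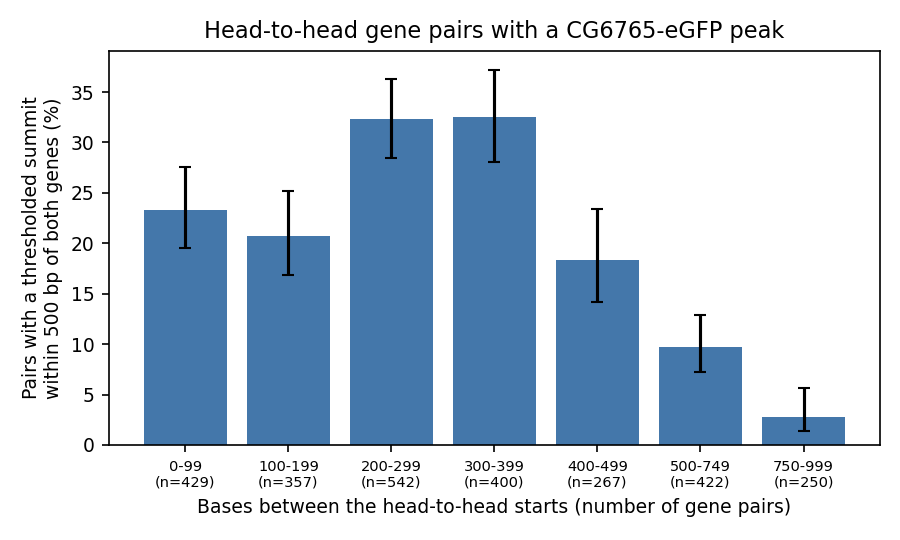
Share of annotated head-to-head gene pairs with a thresholded CG6765-eGFP summit within 500 bp of both genes (percent, y axis) by the number of bases between their starts (x axis, with the number of pairs); bars show the share and lines the Wilson 95% interval. The highest shares, 32.3% and 32.5%, belong to pairs 200 to 399 bases apart, and the lowest, 2.80%, to pairs 750 to 999 bases apart.

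The 562 members lay at 524 gene pairs and touched 1092 genes. One peak was found at 487 pairs and several at 37, with the most, 3, at Elp6 and Dic1, which encode a subunit of Elongator and a mitochondrial dicarboxylate carrier. In 527 members exactly 2 genes were in reach, in 32 there were 3 and in 3 there were more. The largest number, 10, came from a summit on 3R among the pre-mod(mdg4) units, which are annotated as separate genes but supply 3' exons that are trans-spliced to mod(mdg4), so that site is not an ordinary gene pair. Summits in different places can share an interval in the authors' list, and 4 members did so. Most member intervals, 452 (80.4%), had the fixed width of 456 bp with the summit at the centre, as did all 919 candidates, so the widths were not read as measurements. The last members inside the 500 bp limit were D19A/CG7386, Sfxn2/Ugt316A1 and CG34015/eIF4H1, with the farther start 500, 499 and 493 bp away. Peaks just outside it included CG32767/CG15465 and Mpc1/CG42613, at 501 and 504 bp.

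Among members, 543 of 562 (96.6%) had their nearest starts in head-to-head order, against 886 of 919 candidates (96.4%), a difference that was not detectable (odds ratio 1.06, 95% interval 0.599 to 1.89, Fisher's exact p = 0.885). The median gap was 287 bases in members (quartiles 205 and 382.5) and 280 in candidates (150 and 389.75). The shortest gaps among members, 5 and 7 bases, were those of CG3032/CG4593 and SerRS/CG17260, and the longest, 896 and 855, those of CG13605/Root and CG16956/CG42784. The strongest of the 19 members with overlapping genes were CG4741/Adck1, CG31808/Cyt-c-d, GstE10/GstE1, Pgk/Bacc and CG5846/CG4658, in which the plus-strand start lies to the left of the minus-strand start. GstE1 and GstE10 encode glutathione transferases and Pgk the glycolytic phosphoglycerate kinase.

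Members lay between the starts more often than candidates did. The summit was between the nearest starts in 400 of 543 head-to-head members (73.7%), against 550 of 886 candidates (62.1%), with an odds ratio of 1.71 (1.35 to 2.16; Fisher's exact p = 6.5e-06). For the same pairs, 39.4% of the positions that would satisfy the rule at members lie between the starts, and 37.1% of those at candidates. The replicates gave 69.4%, 79.5% and 72.4% among their 3816 strongest peaks, against 50.8%, 65.3% and 55.0% among the rest. The summit lay inside the minus-strand gene in 72 members and inside the plus-strand gene in 71, and in 173 and 163 candidates. With only intervals of the fixed width, 315 of 435 members (72.4%) were between the starts, an odds ratio of 1.60 (Fisher's exact p = 0.000216).

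The distances told the same measure in bases. The nearer start was a median of 82.5 bp from the summit in members (quartiles 38 and 124.75) and 76 bp in candidates (33 and 131). The farther start was 224 bp away in members (150 and 330.75) and 269 bp in candidates (171 and 364.5). Both starts were within 250 bp in 325 members (57.8%), against 425 candidates (46.2%). Of the summits between the starts, 180 of 400 in members (45.0%) and 196 of 550 in candidates (35.6%) were in the central one of 3 equal parts of the gap.

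**Figure D2:**
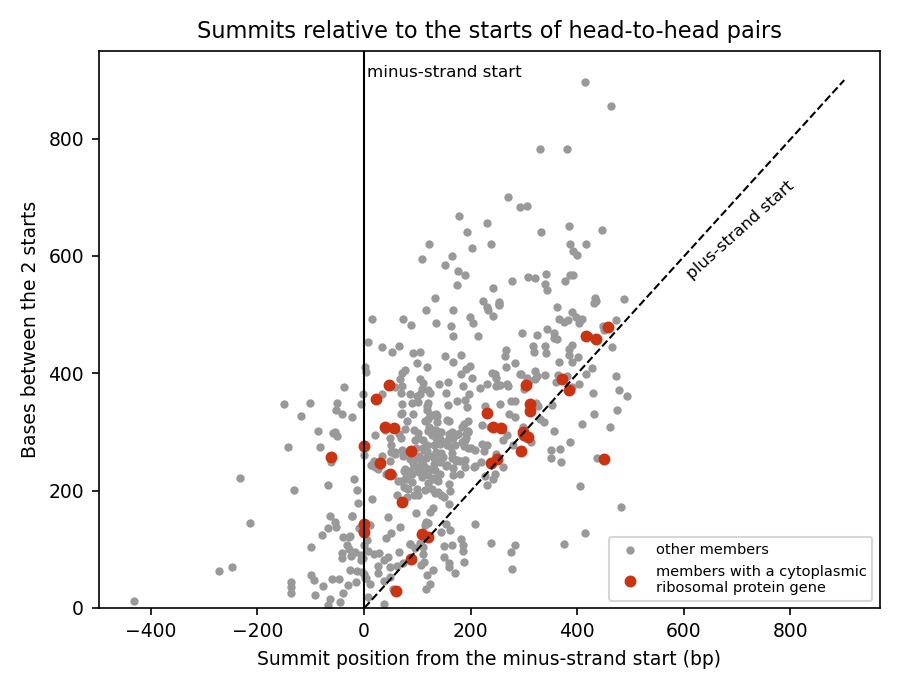
Position of each head-to-head member's summit from the minus-strand start (bp, x axis) against the number of bases between the starts (y axis); the solid line is the minus-strand start, the dashed line the plus-strand start, and red points are members with a cytoplasmic ribosomal protein gene. Of the 543 points, 400 lie between the lines, and 29 of the 34 red points are nearer to the start of the ribosomal protein gene than to that of its partner.

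Divergent promoter peaks and thresholded peaks at 1 gene had similar signals, with no difference detectable in the main comparison. The authors' signal, which has no stated unit and orders peaks within a list only, had a median of 207 in members (quartiles 159 and 317, range 135 to 1270) and 195 in single-gene peaks (158 and 288, highest 2218). Above the median of the thresholded list were 309 of 562 members (55.0%) and 739 of 1448 single-gene peaks (51.0%), with an odds ratio of 1.17 (0.964 to 1.42; Fisher's exact p = 0.123). Members were more often above the median with starts within 250 bp, where the odds ratio was 1.48 (Fisher's exact p = 0.00225). Without replicate 2, among peaks held by both other replicates, the odds ratio was 1.70 (Fisher's exact p = 0.00402).

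Recovery by the replicates was likewise close. A summit within 100 bp among the 3816 strongest of all 3 replicates was found for 245 members (43.6%), against 601 single-gene peaks (41.5%), an odds ratio of 1.09 (0.895 to 1.33; Fisher's exact p = 0.421). Of the other members, 186 were held by 2 replicates, 117 by 1 and 14 by none at that depth of the lists. In the full lists of 30000, all 3 replicates held 426 members (75.8%) and 1116 single-gene peaks (77.1%). By replicate, 361, 449 and 414 members were among the 3816 strongest, and their median ranks were 1843, 1506 and 1709.5. Replicate 1 therefore held the fewest members, and counted over replicates 2 and 3 alone, 336 members and 783 single-gene peaks were held by both, an odds ratio of 1.26 (Fisher's exact p = 0.0214).

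The strongest member was the peak between CG13390 (FBgn0032031) and CG17294 (FBgn0032032), at chr2L:8376724-8377073 with its summit at 8376874. Its signal was 1270, and it ranked 12, 14 and 32 in replicates 1, 2 and 3. The next was the peak between mRpS23, a protein of the small subunit of the mitochondrial ribosome, and CenG1A, an Arf GTPase-activating protein. It had a signal of 1266 and ranks of 10, 32 and 24, and its summit was 382 bp from mRpS23 and 110 bp from CenG1A. The RpS27/Nup37 peak, between a cytoplasmic ribosomal protein gene and a nucleoporin gene, had a signal of 1233 and ranks of 49, 17 and 12. These peaks stood near the top of every list.

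Ripalpha/RpL7, whose genes encode a partner of replication protein A and a large-subunit ribosomal protein, ranked 69, 18 and 10 with a signal of 1195. Art3/mRpS10, an arginine methyltransferase and a mitochondrial ribosomal protein, ranked 48, 13 and 29, and its summit lay 131 bp from Art3 and 126 bp from mRpS10. CG11309/CG7632 and Chro/Ssl1 had signals of 1151 and 1062. Chro encodes the interband protein Chromator and Ssl1 a subunit of the general transcription factor TFIIH. The Tcs5/CHMP2B peak, with a signal of 1033 and ranks of 40, 36 and 52, joins an enzyme of transfer RNA modification and a component of the ESCRT-III membrane machinery. Further down were Nelf-E/RpL14 (944), Lon/PIG-F (896), Dref/RpL13 (819), Stt3A/bves (817), Acbp1/Piezo (816) and Mkk4/SLIRP2 (757), all given by signal. Dref encodes the DRE-binding factor itself, and Piezo a mechanosensitive ion channel.

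The 20 strongest members ranked between 10 and 269 in all replicates, and 15 of them were within the first 100 of every replicate. In 15 of the 20 the summit lay between the starts. The widest spread belonged to eIF4EHP/CG18428, with a translational repressor gene, which ranked 185, 31 and 269. The set held 5 cytoplasmic and 2 mitochondrial ribosomal protein genes. At the other end, CG15011/CG1309, BicD/Sgt and EMC3/Dpy-30L1 had the lowest signals, all rounding to 135, and CG15011/CG1309 ranked 16421 in replicate 1, while EMC3/Dpy-30L1 had no summit within 100 bp in the list of replicate 3. The strongest candidates under the threshold that met the position rule were Ctu2/swm, mRpS18B/Kua, heix/CG17328, Ir60e/CG13585 and CG3448/ghi, with signals of 134. The thresholded peak at the promoter of CG6765 itself had its summit at 8512574 on 3L, 193 bp from the CG6765 start, with a signal of 391 and rank 501, and it was not a member because no other protein-coding start was in reach.

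**Figure D3:**
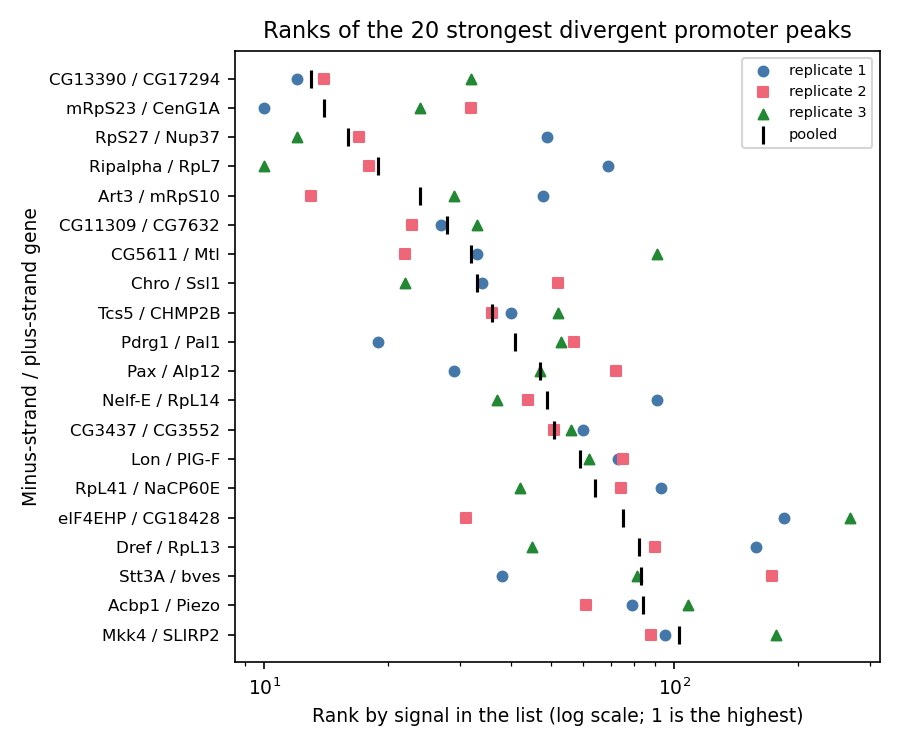
Rank by signal (x axis, log scale, 1 is the highest) of the 20 strongest members in the lists of replicates 1, 2 and 3 and in the pooled list, 1 gene pair per row. Ranks run from 10 to 269, and 15 of the 20 peaks were within the first 100 of every replicate.

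The genes at members were described with 10 lists of components of basic cellular machinery, defined by symbol. At least 1 listed gene was in reach of 91 members (16.2%), against 94 of 919 candidates (10.2%) and 60 of 1448 single-gene peaks (4.14%). By the rule a member or candidate has at least 2 genes in reach and a single-gene peak exactly 1. This alone raises the share of members above that of single-gene peaks. The lists were chosen with results of these data known, and the counts carry no test. The replicates' strongest divergent peaks gave 16.1%, 16.3% and 16.1%, against 3.48%, 4.51% and 4.06% of their single-gene peaks.

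Among the lists, cytoplasmic ribosomal protein genes contributed the most members, 34 of 562 (6.05%). They were in reach of 1 of 919 candidates (0.109%) and 46 of 1448 single-gene peaks (3.18%). A member has more genes in reach than a single-gene peak, which alone raises its share above that of single-gene peaks. Counted by genes, 28 genes of this list were at members and 45 at single-gene peaks. Of the 87 genes in the list, 52 were head-to-head and 48 of these had a thresholded summit, while 26 of the 35 others had one, where 17.0% of all protein-coding genes did. Summits were rarer at mitochondrial ribosomal protein genes in both classes. Over all protein-coding genes, 26.9% of head-to-head genes and 11.4% of the others had a summit. Of 73 genes, 58 were head-to-head and 16 of these had a summit, with 0 of the 15 others, and the list reached 17 members (3.02%), 24 candidates (2.61%) and 1 single-gene peak.

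The other lists were smaller. Translation factor genes had a summit at 10 of 28 head-to-head genes and 6 of 26 others and reached 8 members. Respiratory chain and ATP synthase genes had one at 9 of 39 and 2 of 27 and reached 10. Proteasome subunit genes had one at 6 of 26 and 0 of 20 and reached 7. Mediator genes, whose products link activators to RNA polymerase II, had one at 6 of 19 and 1 of 6 and reached 6. Aminoacyl-tRNA synthetases (4 of 22 and 0 of 10, 4 members), nucleoporins (4 of 18 and 0 of 3, 4 members), spliceosomal and Sm proteins (3 of 20 and 0 of 3, 3 members) and the CCT chaperonin (1 of 7 and 0 of 1, 1 member) completed the lists. Set beside the 26.9% of all head-to-head genes, the cytoplasmic ribosomal proteins had a much larger share, and the other lists are too small for their shares to be ranked.

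At pairs with a cytoplasmic ribosomal protein gene, the summit sat at that gene and not midway, an observation made after the data were seen. It was nearer to the ribosomal protein start than to the partner start in 29 of 34 members (85.3%). Taking the strongest peak of each pair, this held in 28 of 28 pairs, with a median of 24 bp to the ribosomal protein start (range 0 to 102) and 273 bp to the partner start (60 to 457). In 23 of the 28 the ribosomal protein start was within 50 bp, and in 0 of 28 the partner start was. The 509 other head-to-head members had a median of 89 bp to the nearer start, and 143 of them (28.1%) were within 50 bp. The replicates' own strongest lists gave 31 of 38, 28 of 33 and 30 of 34 nearer to the ribosomal protein gene.

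The RpL19 summit lay on the RpL19 start and 131 bp from CG3776, with a signal of 757 and ranks of 140, 137 and 55. At RpLP0, which encodes a protein of the ribosomal stalk, the summit was 25 bp from RpLP0 and 311 bp from CG7130 (signal 752, ranks 202, 95 and 77). At RpS16 it was 25 bp from RpS16 and 435 bp from CG4294 (signal 544, ranks 1069, 175 and 143), and at RpS19a 23 bp from RpS19a and 457 bp from the kinase gene Rok (signal 432, ranks 1171, 407 and 202). Replicate 1 gave these last peaks the lowest places of the 3. Of the 34 summits, 24 were upstream of the ribosomal protein start, 3 on it and 7 downstream.

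The remaining 6 peaks were weaker second peaks of the same pairs, and 5 of them were nearer to the partner. At RpS25/CG4820 the second summit was 10 bp from CG4820, with a signal of 285 against 748 at RpS25, and replicate 3 had no summit there. At RpL32/CG7943 and RpL34b/CG8132 the second summits were 67 and 25 bp from the partner, with signals of 218 and 194. The median signal was 206 over these 6 peaks and 559 over the 28 strongest ones.

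Mitochondrial ribosomal protein pairs did not share this placement. The summit was nearer to the mitochondrial ribosomal protein start in 4 of 17 members (23.5%), and in 4, 5 and 6 of the 13, 17 and 16 such peaks of replicates 1, 2 and 3. Over the strongest peak of each of 15 pairs, the median distance was 216 bp to the mitochondrial ribosomal protein start (47 to 382) and 106 bp to the partner (20 to 340). The mRpL23/CG9004 summit was 47 bp from mRpL23 and 97 bp from CG9004 (signal 752), while the mRpL20 summit was 293 bp from mRpL20 and 106 bp from Icmt, an isoprenylcysteine methyltransferase gene (signal 268).

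**Figure D4:**
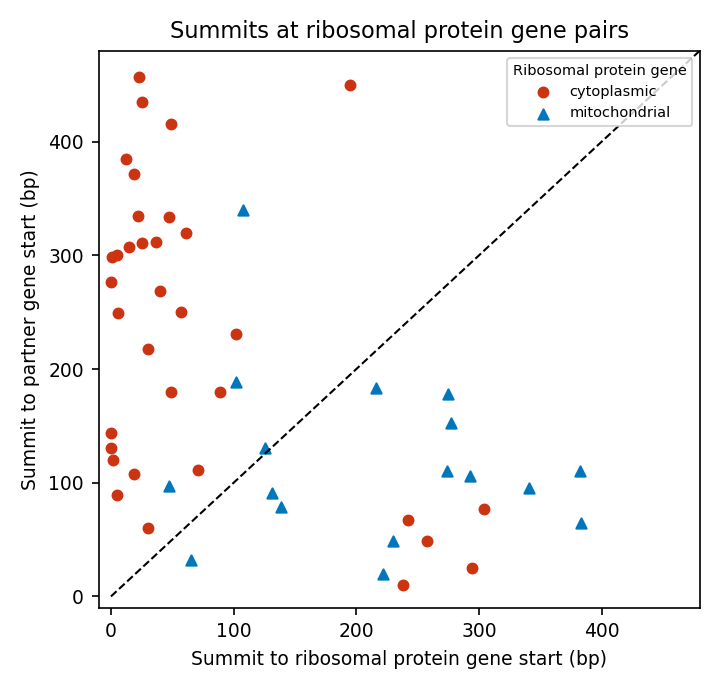
Distance from the summit to the ribosomal protein gene start (bp, x axis) against the distance to the partner start (bp, y axis) for members with a cytoplasmic (red circles, 34) or mitochondrial (blue triangles, 17) ribosomal protein gene; the dashed line marks equal distance. Above the line, nearer to the ribosomal protein gene, lie 29 of 34 cytoplasmic and 4 of 17 mitochondrial points.

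The DNA at member summits was richer in A and T than that of either comparison. Within 50 bp of the summit on each side, the median GC content was 34.7% in members, 40.6% in candidates of the same position rule and 39.6% in single-gene peaks. It was above 41.6%, the median of all candidates, in 169 of 562 members (30.1%), against 390 of 919 candidates (42.4%; odds ratio 0.583, 0.467 to 0.729, Fisher's exact p = 2.0e-06) and 643 of 1448 single-gene peaks (44.4%; odds ratio 0.538, 0.437 to 0.663, p = 3.8e-09). The replicates gave 31.7%, 23.8% and 36.5% in their strongest divergent peaks, against 47.2%, 37.6% and 46.3% in the weaker ones and 51.0%, 37.8% and 53.5% in single-gene peaks. Replicate 2 had the lowest value in each set, and in each replicate the divergent peaks were the lowest set. Against single-gene peaks the odds ratio was 0.291 with starts within 250 bp and 0.826 with starts within 1000 bp.

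Words of 18 known motifs were counted in the same windows on either strand, with Benjamini-Hochberg adjustment over 36 comparisons. Against candidates of the same position rule only the TATA box word TATAAA differed. It was near 138 of 562 member summits (24.6%) and 140 of 919 candidate summits (15.2%), an odds ratio of 1.81 (1.39 to 2.36; Fisher's exact adjusted p = 0.000166). Around all annotated start sites, 15.5% of windows of that length held it. The replicates gave 21.8%, 27.0% and 22.4% in their strongest divergent peaks, against 16.6%, 17.0% and 15.3% in the weaker ones. The word is made of A and T only, and GC content moved with this result: in a logistic model with GC content the odds ratio was 1.23 (adjusted p = 0.5), against 1.81 in the exact test. In exact tests it also missed the threshold against the candidates just under the authors' threshold alone (adjusted p = 0.125) and within 25 bp (0.0555).

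The elements of housekeeping promoters were more frequent at members than at single-gene peaks, and no difference from the weaker divergent candidates was detectable. The DRE word TATCGATA was near 30 of 562 member summits (5.34%), 50 of 919 candidate summits (5.44%) and 23 of 1448 single-gene summits (1.59%), with an odds ratio of 3.49 against single-gene peaks (2.01 to 6.07; exact test, adjusted p = 0.000166) and 0.980 against candidates (0.615 to 1.56). The shorter BEAF-32 core TCGATA, which lies within the DRE word, was near 13.2% of members, 15.5% of candidates and 6.22% of single-gene peaks (odds ratio against single-gene peaks 2.29, exact test, adjusted p = 4.0e-05). The motif 1 word GGTCACACT was near 2.49%, 4.35% and 0.898% (odds ratio against single-gene peaks 2.82, exact test, adjusted p = 0.0441). These differences from single-gene peaks held with GC content in the model, at odds ratios of 4.44, 2.48 and 3.96. They did not pass the exact test in the stronger part of the thresholded list (adjusted p = 0.386 for the DRE, 0.261 for the BEAF-32 core and 0.298 for motif 1) or with starts within 250 bp (0.213, 0.119 and 0.904). Motif 1 also missed the threshold of the exact test with 1 peak for each gene pair (adjusted p = 0.403), with the 5' end of each gene only (0.19), within 25 bp (0.553) and without any 1 replicate (0.0995 to 0.284). All annotated starts held the 3 words in 4.48%, 13.8% and 3.64% of windows, which lie around starts and not around summits. Single-gene summits lay a median of 143 bp from the start, and 39.6% of them were within 100 bp. Member summits lay a median of 82.5 bp from the nearer start, and 60.9% of them were within 100 bp. Whether this distance bears on the word shares was not tested.

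Of the elements of regulated promoters, the GAGA factor and initiator words were less frequent at members than at single-gene peaks, and the TATA box word was more frequent. The GAGA factor word GAGAG was near 9.25% of members, 8.38% of candidates and 15.9% of single-gene peaks (odds ratio against single-gene peaks 0.540, exact test, adjusted p = 0.000578), and the initiator word TCAGT near 15.3%, 17.4% and 20.8% (odds ratio against single-gene peaks 0.688, adjusted p = 0.0329). All annotated starts held GAGAG in 12.7% of windows and TCAGT in 31.7%, the latter above all 3 sets of peaks. Those windows lie around starts and the windows of peaks around summits, so the shares are not of like positions. In the logistic model with GC content, unlike in the exact test, the adjusted p was 0.167 for GAGAG and 0.238 for TCAGT. In exact tests TCAGT also missed the threshold with starts within 250 bp (adjusted p = 0.729) or 1000 bp (0.0731) and within 25 bp (0.587). It missed it too in the stronger part of the list (0.0784), with 1 peak for each gene pair (0.104) and with the 5' end of each gene only (0.19). Within 100 bp TCAGT passed (3.9e-05). GAGAG passed the exact test in all of these settings (0.0411 or lower). The replicates' strongest divergent peaks held GAGAG in 9.69%, 6.83% and 10.1%, against 20.2%, 12.8% and 18.3% of their single-gene peaks. TATAAA was near 24.6% of members, against 16.2% of single-gene peaks (odds ratio 1.68, exact test, adjusted p = 0.000214), and did not pass with GC content in the model (0.637). In exact tests it also missed the threshold in the stronger part of the list (adjusted p = 0.337), with starts within 1000 bp (0.111) and within 25 bp (0.0555). It passed with starts within 250 bp (1.9e-05) and within 100 bp (9.9e-07). The word was counted anywhere in the window, and its distance from a start was not tested. Of these 6 differences from single-gene peaks, 2 passed without replicate 1, 3 without replicate 2 and 0 without replicate 3, where the smaller sets of peaks held by both other replicates, 336, 285 and 300 members, were tested. The DRE word missed the threshold of the exact test in all 3 of these sets (adjusted p from 0.0976 to 0.289), with odds ratios of 2.04 to 2.55. The other 12 words were the E-box CAGCTG, the Zelda word CAGGTAG, the Pleiohomeotic word GCCAT, the GATA factor word AGATAAG, the CREB word TGACGTCA, the Ets word CCGGAAGT, the heat-shock factor word GAANNTTC, the GC box GGGCGG, the CTCF core AGGTGGC, the A tract AAAAAAAA, the CA repeat CACACACA and the further E-box CACGTG. They passed in neither comparison, and the most frequent of them at members, GCCAT, was near 12.6%, against 12.9% of candidates and 14.1% of single-gene peaks. A word match describes the letters in the window and is not evidence of a bound site.

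**Figure D5:**
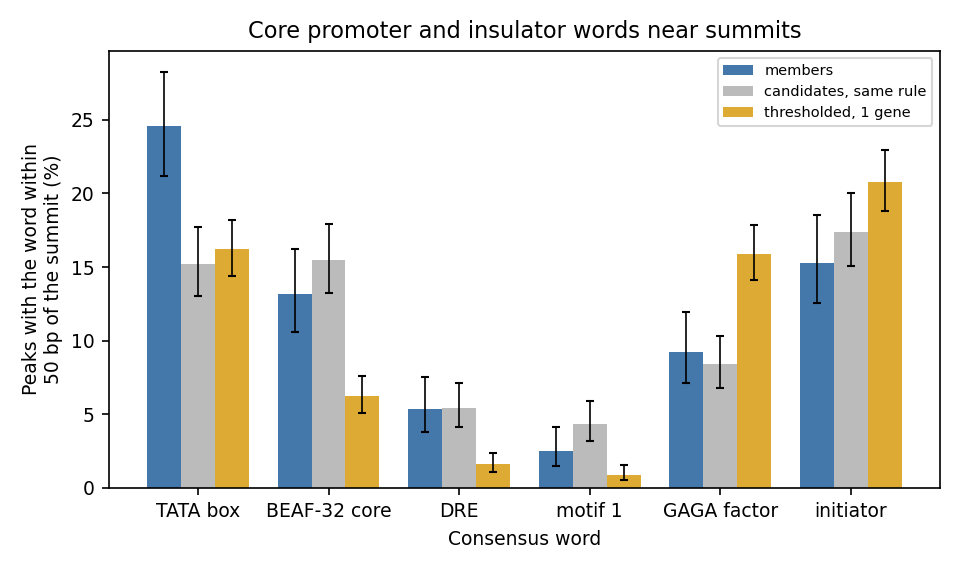
Share of peaks with a consensus word within 50 bp of the summit (percent, y axis) in members (562), candidates of the same position rule (919) and thresholded single-gene peaks (1448), with Wilson 95% intervals. The TATA box word is most frequent in members at 24.6%, while the DRE, BEAF-32 and motif 1 words are less frequent in single-gene peaks than in both divergent sets.

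A search over words of 8 bases found in at least 20 members, ranked on arms 2L, 2R and 4, put CTTTTTAA first. On the arms not used for the ranking it was near 11 of 339 members (3.24%), against 9 of 596 candidates (1.51%), an odds ratio of 2.19 that missed the threshold (0.897 to 5.33; Fisher's exact p = 0.099).

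Members were less often on the X chromosome, a comparison added after the data were seen. By arm, 114 were on 2L, 107 on 2R, 121 on 3L, 160 on 3R, 2 on 4 and 58 on X. The X share was 10.3% in members, against 185 of 919 candidates of the same position rule (20.1%; odds ratio 0.457, 0.333 to 0.626, Fisher's exact p = 5.2e-07) and 231 of 1448 single-gene peaks (16.0%; odds ratio 0.606, 0.446 to 0.823, p = 0.0011). Against the candidates just under the threshold alone, the odds ratio was 0.654 (Fisher's exact p = 0.0584). The replicates gave 11.9%, 10.0% and 9.21% in their strongest divergent peaks, against 17.6%, 16.8% and 17.5% in the weaker ones. Counted by gene pairs, 64 of 403 pairs on X held a thresholded summit (15.9%), against 25.5% on 3R, 22.6% on 3L, 22.4% on 2L and 19.3% on 2R, while a candidate of any rank was found at 54.6% of the pairs on X and 51.5% of all pairs.

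Peaks at 1 gene showed a smaller difference. Thresholded single-gene peaks were on X in 16.0% of cases, against 883 of 4937 other single-gene candidates (17.9%), an odds ratio of 0.871 (0.744 to 1.02; Fisher's exact p = 0.0905). The difference between the classes was tested as an interaction in a logistic model across peaks, and the ratio of the odds ratios was 0.524, with a 95% interval of 0.368 to 0.746.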

How the data were processed

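ChIP-seq peak lists on dm6 were used from 3 biological replicates of 1 group, with every column of the dm3 lists left out. The authors deposited candidate lists of the replicates and of their pool, and a reproducibility-thresholded list. In each the authors give a signal value of no stated unit, used here only to rank peaks within a list, and a q-value as its −log10, not used for ranking because most thresholded peaks share its maximum. The sources used here name no aligner, peak caller or threshold.

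Gene starts came from Ensembl release 115 (BDGP6.54; 13945 protein-coding genes and 19607 start sites on 6 arms). Another 1101 candidates that overlapped a thresholded peak were left out of the comparison set, though not of the shares by rank or of the replicates' own lists. Differences in shares were tested with Fisher's exact test, two-sided (scipy 1.17.1), at 0.05, with Benjamini-Hochberg adjustment over the 36 motif comparisons. Intervals are at 95%, by Wilson's method for shares and on the log scale for odds ratios. Logistic models used statsmodels 0.14.6. The scripts were tested on simulated data. Named genes are the CG6765 peak, the 20 strongest members, the strongest members of each gene list, those with overlapping genes, the weakest, the extremes of the gap and the strongest candidates. Members of the ribosomal protein lists beyond the strongest were chosen after their values were seen. The members, gene lists and motifs were chosen with earlier results of these data known. Some items that the rule for named genes selects are not reported here.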

Additional observations from a re-analysis of the deposited data

How the results depend on the processing

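Of 159 recomputed values of 17 results, 130 kept their direction and their side of the threshold, stayed within the spread of the replicates or, for counts, within 1.5 times the count. The direction turned in 3, all for the odds ratio of being held by all 3 replicates, which missed the threshold at 1.09 and was 0.985 in the stronger part of the list, 0.989 with summits within 50 bp and 0.896 without replicate 2. The share of members with a listed gene, 16.2%, was 15.3% with 1 peak for each gene pair, 19.1% in the stronger part of the thresholded list, 15.4% within 250 bp and 17.7 to 18.5% when a replicate was left out. The 1 motif that differed from candidates became 0 within 25 bp, with GC content in the model and against only the candidates directly below the threshold. The 6 that differed from single-gene peaks became 3 within 25 bp, 3 with GC content, 1 in the stronger part of the list, 2 with starts within 250 bp and 0 to 3 when a replicate was left out. They became 8 within 100 bp of the summit, 5 with 1 peak for each gene pair, and 4 with the 5' end of each gene only or with starts within 1000 bp. The odds ratio of being above the median signal was 1.48 within 250 bp (Fisher's exact p = 0.00225) and ran from 1.00 to 1.70 when a replicate was left out, and that of being held by the replicates from 0.896 to 1.26. The first-ranked word passed with starts within 1000 bp (odds ratio 2.43, Fisher's exact p = 0.0395), and the X share against candidates missed the threshold against those directly below it (0.654, p = 0.0584). Summits nearer to the ribosomal protein start, 85.3%, were 100% with 1 peak for each pair and 86.7 to 93.1% when a replicate was left out. For mitochondrial ribosomal proteins the 23.5% became 33.3% within 250 bp and 20 to 30.0% when a replicate was left out. The cause of these moves was not tested. The signal comparison has no value in the stronger part of the list, where every peak is above the median, and the rarest motif gave no stable fit in the model with GC content. No paired analysis was possible because the labels give 1 group, so replicate numbers pair no samples, and the sign-flip test compared only parts of each replicate's own list. Depth is unknown, and candidates include background regions.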
